A study of Homo sapiens with 12 samples.

Results

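The S100 genes described here were S100A2, S100A3, S100A4, S100A6, S100A11, S100A13, S100A14, S100A16 and S100P, 9 genes out of 12887 with a tested value. Every probe set that the array annotation pairs with one of these symbols alone was taken, which gave 11 of the 54675 probe sets on the array. The genes were chosen by their symbols with their log2 intensities in the 4 groups already known, so those levels are given as a description, without a test, and support nothing beyond themselves.

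The arrays were of the MDA231 (MDA-MB-231) line, established from a human triple-negative breast cancer, and held 4 groups of 3 arrays each. Scramble cells carried a non-targeting short hairpin RNA and served as control. A second group carried the scramble hairpin and was exposed to ETX, taken here to be etomoxir, a drug that blocks carnitine palmitoyltransferase 1, although the labels give only the abbreviation. The shCPT-1 and shCPT-2 groups carried lentiviral pGIPZ hairpins against CPT1 and CPT2, enzymes that bring long-chain fatty acids into mitochondria for oxidation. All groups therefore carried a hairpin construct. The sources used here leave out the isoform of CPT1, the number of hairpins or clones behind each group, and how much ETX was given and for how long. No label states that replicate arrays were hybridised with RNA of different cultures, and each p-value below reflects the spread between arrays, which may be technical. The design compares each altered group with scramble and all groups with each other.

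S100 proteins are small calcium-binding proteins with EF-hand motifs that act as dimers and have no enzymatic activity of their own. On binding calcium most of them expose a surface that docks onto target proteins such as annexins or myosin, and several are also released from cells, where they bind receptors such as RAGE and TLR4. S100A4 is best known in breast cancer for its link to invasion and metastasis. Most S100 genes lie together on chromosome 1, including 8 of the 9 listed here, whereas S100P lies on chromosome 4.

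S100A6, S100A4, S100A3 and S100A2 followed each other along chromosome 1, with only S100A5 among the tested genes in between, and shared 1 order of the 4 groups. For these the 250 bases before the RefSeq start (build GRCh38.p14, minus strand, 5′ to 3′) are shown, with every match to a searched motif in capitals. The windows are chr1:153535992-153536241 for S100A6, chr1:153545807-153546056 for S100A4, chr1:153549259-153549508 for S100A3 and chr1:153565845-153566094 for the outer start of S100A2.
S100A6: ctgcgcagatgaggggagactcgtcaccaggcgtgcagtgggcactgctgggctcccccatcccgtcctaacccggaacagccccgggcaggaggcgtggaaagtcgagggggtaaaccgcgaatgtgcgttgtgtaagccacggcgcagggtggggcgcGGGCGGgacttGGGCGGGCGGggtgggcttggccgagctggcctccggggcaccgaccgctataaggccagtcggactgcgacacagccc
S100A4: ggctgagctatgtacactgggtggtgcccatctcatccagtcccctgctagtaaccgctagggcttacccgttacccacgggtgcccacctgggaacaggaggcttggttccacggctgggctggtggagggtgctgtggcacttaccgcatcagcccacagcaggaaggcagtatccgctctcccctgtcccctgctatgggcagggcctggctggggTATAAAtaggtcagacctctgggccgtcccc
S100A3: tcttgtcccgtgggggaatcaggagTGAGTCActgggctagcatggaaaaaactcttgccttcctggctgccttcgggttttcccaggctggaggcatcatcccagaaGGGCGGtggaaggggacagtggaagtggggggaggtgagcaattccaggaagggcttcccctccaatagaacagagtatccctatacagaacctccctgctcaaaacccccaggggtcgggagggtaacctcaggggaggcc
S100A2: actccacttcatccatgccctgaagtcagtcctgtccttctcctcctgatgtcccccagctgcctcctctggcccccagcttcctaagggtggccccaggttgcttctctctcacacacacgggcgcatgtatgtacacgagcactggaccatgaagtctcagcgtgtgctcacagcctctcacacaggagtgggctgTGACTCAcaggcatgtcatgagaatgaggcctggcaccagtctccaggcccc

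The motifs were searched on both strands. S100A3 and S100A2 each held TGANTCA, the AP-1 site, beginning 225 and 52 bases before the start, a motif found in 6.57% of the 35116 RefSeq windows of this length. The window before the inner start of S100A2, which is not shown, held no match to a searched motif. S100A4 held TATAAA, the TATA box, 31 bases before its start, as 10.7% of windows did. S100A6 held GGGCGG, the GC box, at 3 places, 2 of which overlap, and S100A3 held it once, as did 42.6% of windows. CTTTGA, the core of the TCF site, was in 11.2% of windows and ACGTG, the hypoxia element core, in 18.5%, and neither was among the 4 sequences shown. TGATGCAA, an ATF4 composite element (0.772% of windows), and the direct repeat bound by PPAR receptors (0.0171%) were also not among them. These matches describe letters, and no binding was measured.

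Array medians lay between 74.9 and 77.2 intensity units, or 6.23 to 6.27 on the log2 scale, so a log2 level near 6.25 marks the middle of an array. Over the 28630 probe sets that passed the filter on low values, arrays of a group correlated at 0.9915 to 0.9984. Arrays of different groups correlated at 0.9907 at most. CPT1A, a liver-type CPT1, measured 9.64 to 9.86 in scramble and 8.10 to 8.34 in shCPT-1, and CPT2 measured 7.31 to 7.46 in scramble and 6.22 to 6.61 in shCPT-2. With ETX both lay above scramble, CPT1A at 10.80 to 10.97 and CPT2 at 7.64 to 7.71. In the other knockdown CPT1A measured 9.48 to 9.60 (shCPT-2) and CPT2 7.45 to 7.81 (shCPT-1). Of 6 genes known from MDA-MB-231 cells, VIM, CD44, AXL, EGFR and CAV1 exceeded the array median on all 12 arrays and SPARC on 4. Markers of other cell types were mixed: leukocyte PTPRC and CD14, endothelial CDH5 and VWF, and fibroblast LUM, COL1A2 and COL3A1 exceeded it on 0 arrays, whereas CD3E, PECAM1, TEK and COL1A1 did on 12, KDR and PDGFRA on 8, PDGFRB on 7 and DCN on 3.

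S100A4, which binds non-muscle myosin, had the widest range of the listed genes. It measured 9.23, 9.17 and 9.24 on the log2 scale on the scramble arrays and 9.13 on each of the ETX arrays. With shCPT-1 it measured 10.64, 10.49 and 10.49, and with shCPT-2 it measured 8.10, 7.88 and 8.06. The knockdowns thus lay on opposite sides of scramble, and no array of a group overlapped with another group. Group means were 9.21 ± 0.04 (SD, n = 3) in scramble, 9.13 ± 0.0016 with ETX, 10.54 ± 0.09 with shCPT-1 and 8.02 ± 0.12 with shCPT-2. The difference from scramble was 1.33 (SE 0.06, 2.51-fold) with shCPT-1, -1.20 (2.29-fold lower) with shCPT-2 and -0.08 with ETX. Between the knockdowns S100A4 differed by 5.75-fold, and 0.225% of tested genes had a wider range of group means. It has 1 probe set, of a kind that can match several transcripts, and in RefSeq the 5′ end of S100A5 overlaps the 3′ end of S100A4 on the same strand, so signal from the overlap cannot be told apart.

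S100A2, a mostly nuclear member, kept the same order of groups. It measured 8.86, 8.89 and 8.72 in scramble, 8.36, 8.41 and 8.48 with ETX, 9.32, 9.33 and 9.28 with shCPT-1 and 7.77, 7.76 and 7.75 with shCPT-2. All 4 groups were separate, with shCPT-1 highest and shCPT-2 lowest. The difference from scramble was -0.40 (SE 0.05, 1.32-fold lower) with ETX, 0.48 (1.40-fold) with shCPT-1 and -1.07 (2.09-fold lower) with shCPT-2. S100A3, a zinc- and calcium-binding member known from the hair cuticle, measured 7.79, 7.81 and 7.86 in scramble and 7.56, 7.59 and 7.53 with ETX. It measured 8.44, 8.42 and 8.20 with shCPT-1 and 7.42, 7.23 and 7.28 with shCPT-2. Again no groups overlapped, and the differences from scramble were -0.26 (SE 0.07), 0.54 (1.45-fold) and -0.51 (1.42-fold lower) in the order ETX, shCPT-1, shCPT-2.

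**Figure D1:**
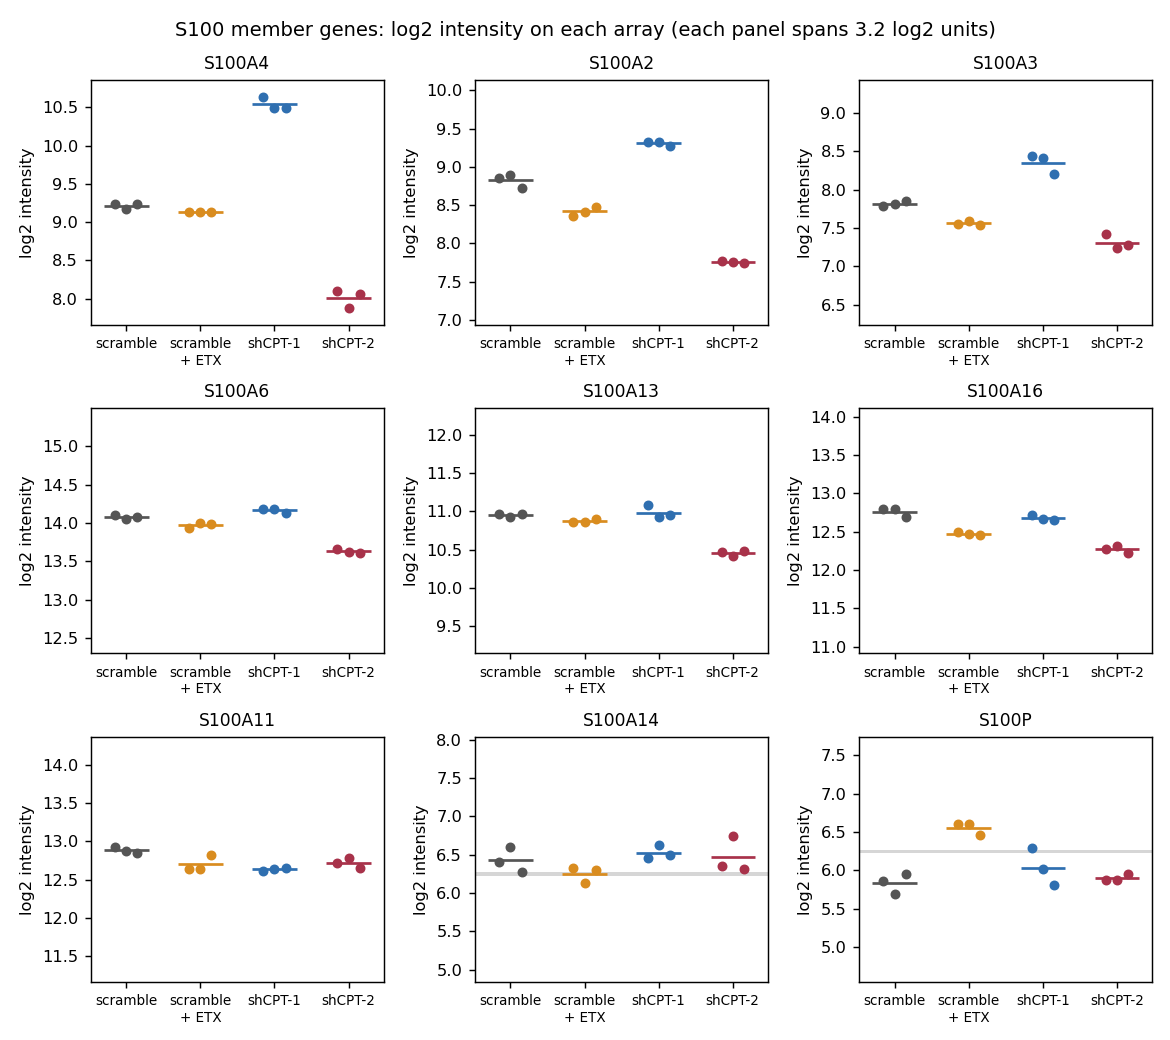
Log2 intensity of each listed S100 gene (vertical axes, each spanning the same number of log2 units) on each array (points) in the 4 groups, with group means as bars and array medians as a grey band where in range. S100A4 runs from 8.02 in shCPT-2 to 10.54 in shCPT-1 on average, whereas S100A11 stays between 12.64 and 12.88 and S100P is highest with ETX, at 6.55.

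S100A6, or calcyclin, binds annexins and the ubiquitin ligase adaptor CACYBP. Its brighter probe set measured 14.10, 14.05 and 14.08 in scramble, 13.94, 13.996 and 13.99 with ETX, 14.18, 14.19 and 14.13 with shCPT-1 and 13.67, 13.63 and 13.61 with shCPT-2. The groups stood in the order seen for S100A4 and did not overlap, but only shCPT-2 lay far from scramble, at -0.44 (SE 0.04, 1.36-fold lower). ETX and shCPT-1 differed from scramble by -0.10 and 0.09. The dimmer probe set measured 8.83, 8.79 and 8.62 in scramble, 8.26, 8.25 and 8.44 with ETX, 8.48, 8.55 and 8.62 with shCPT-1 and 7.34, 7.43 and 7.24 with shCPT-2. There all differences from scramble were negative, at -0.43, -0.20 and -1.41, so both probe sets were lower with shCPT-2 and with ETX and they disagreed on shCPT-1.

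S100A13 takes part in the export of FGF1 and interleukin-1 alpha, which lack a signal peptide. Its brighter probe set measured 10.97, 10.93 and 10.96 in scramble, 10.87, 10.86 and 10.90 with ETX, 11.08, 10.93 and 10.95 with shCPT-1 and 10.47, 10.42 and 10.48 with shCPT-2. Its difference from scramble was -0.49 (SE 0.05, 1.41-fold lower) with shCPT-2 and -0.07 with ETX, and it overlapped with scramble in shCPT-1. The dimmer probe set went the opposite way. It measured 6.68, 6.80 and 6.91 in scramble, 7.32, 7.21 and 7.06 with ETX, 7.29, 7.25 and 7.15 with shCPT-1 and 7.33, 7.03 and 7.10 with shCPT-2, so all 3 altered groups lay above scramble, by 0.40, 0.43 and 0.36. With the mean of both probe sets S100A13 stood at 0.16 with ETX and at -0.07 with shCPT-2, so its direction depends on the probe set. In RefSeq, S100A1 lies within the span of S100A13, and the S100A1 probe set exceeded the array median on 0 arrays.

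**Figure D2:**
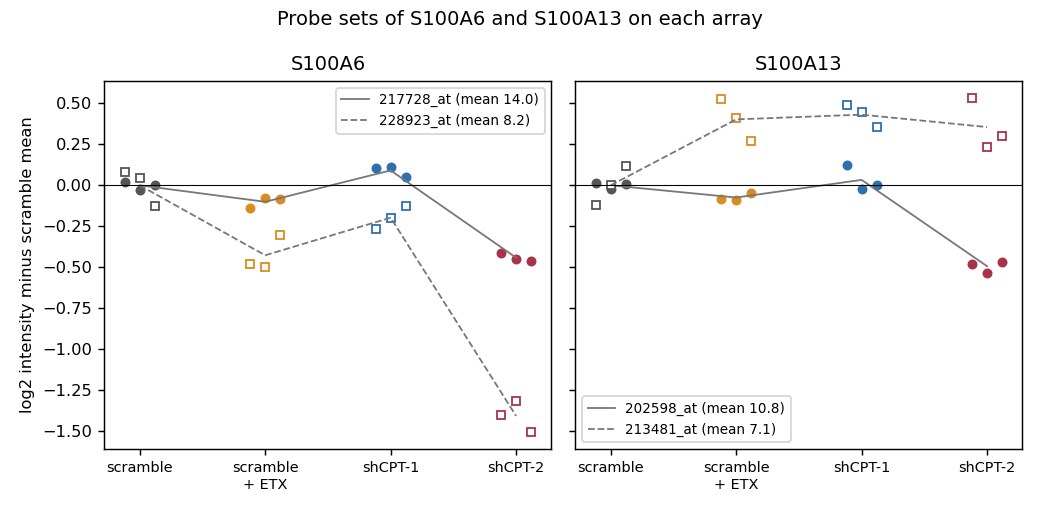
Log2 intensity minus the scramble mean (vertical axis) on each array for both probe sets of S100A6 (left) and S100A13 (right). Filled circles with solid lines mark the brighter and open squares with dashed lines the dimmer probe set, and lines join group means. With shCPT-2 the S100A6 probe sets lie at -0.44 and -1.41, and those of S100A13 at -0.49 and 0.36.

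S100A16, a member found in many tissues, measured 12.80, 12.80 and 12.69 in scramble, 12.50, 12.47 and 12.46 with ETX, 12.72, 12.67 and 12.66 with shCPT-1 and 12.28, 12.32 and 12.22 with shCPT-2. ETX and shCPT-2 lay below scramble without overlap, at -0.29 (SE 0.05, 1.22-fold) and -0.49 (1.40-fold), and shCPT-1 overlapped with it at -0.08. S100A11, which works with annexin A1 in membrane repair and growth control, measured 12.93, 12.87 and 12.85 in scramble, 12.64, 12.64 and 12.82 with ETX, 12.61, 12.64 and 12.65 with shCPT-1 and 12.72, 12.79 and 12.65 with shCPT-2. All altered groups lay below scramble, with differences of -0.18, -0.25 and -0.16 (SE 0.06), while ETX overlapped with both knockdowns. S100A11 was the only listed gene whose main probe set lay below scramble without overlap in all 3 altered groups.

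S100A14 and S100P lay near the array median. S100A14, a member of epithelia, measured 6.40, 6.61 and 6.28 in scramble, 6.32, 6.14 and 6.30 with ETX, 6.46, 6.62 and 6.49 with shCPT-1 and 6.35, 6.75 and 6.31 with shCPT-2. Each altered group overlapped with scramble, and the differences were -0.17, 0.10 and 0.04 (SE 0.11). S100P, first found in placenta and a binder of ezrin and RAGE, measured 5.86, 5.69 and 5.95 in scramble and 6.60, 6.60 and 6.46 with ETX. It measured 6.28, 6.01 and 5.81 with shCPT-1 and 5.88, 5.87 and 5.95 with shCPT-2. ETX lay above the other groups, at 0.72 (SE 0.10, 1.65-fold) over scramble, and the knockdowns overlapped with scramble at 0.20 and 0.07. S100P exceeded the array median on 4 arrays, the 3 with ETX and shCPT-1 array 1, so it passed the filter on low values mainly through the group in which it was high, whereas 8 of the 9 genes exceeded it on 11 or 12 arrays.

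ETX against scramble asks what the drug changes in cells with the same hairpin. Here 7 of the 9 genes (S100A2, S100A3, S100A4, S100A6, S100A11, S100A13 and S100A16) had all 3 ETX arrays below all 3 scramble arrays, and 1, S100P, had them above. Over all tested genes 23.8% lay below and 25.8% above in this way. The differences were small: the median difference of the listed genes was -0.17, against -0.01 for all genes, and their median size 0.18 against 0.14. When probe sets were averaged 2 genes, S100P and S100A13, lay above and 6 lay below. With arrays centred on their medians 5 lay below, so the count of 7 depends on the processing.

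For shCPT-1 against scramble, the knockdown of CPT1, S100A2, S100A3, S100A4 and S100A6 lay above scramble and S100A11 below. That is 4 genes above, where 27.8% of all genes lay above, and 1 below, where 23.3% did. Without scramble array 3 or without shCPT-1 array 1, 2 genes lay below. The median difference was 0.10, against 0.01 for all genes, and S100A4 stood apart from the other listed genes in size, at 1.33 against 0.54 for the next, S100A3.

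For shCPT-2 against scramble, the knockdown of CPT2, 7 of the 9 genes lay below scramble and 0 above, where 24.1% of all genes lay below and 28.3% above. The 7 were S100A2, S100A3, S100A4, S100A6, S100A11, S100A13 and S100A16, and the others were S100A14 and S100P, which overlapped. The median difference was -0.49, against 0.0046 for all genes, and the median size 0.49 against 0.15. Without scramble array 3, 1 gene lay above. With quantile normalization again, and with the mean of probe sets, 6 genes lay below. All 3 comparisons share the scramble arrays, so a shift of those arrays would enter each. On the actin control the log2 difference between its 3′ and 5′ probe sets, which grows with RNA breakdown, was 2.07 ± 0.27 in scramble, 1.75 ± 0.06 with ETX, 1.73 ± 0.23 with shCPT-1 and 1.68 ± 0.23 with shCPT-2 (SD, n = 3). Its part in these differences was not tested.

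The order shCPT-1 over scramble over ETX over shCPT-2 in group means held for S100A2, S100A3, S100A4, S100A6 and S100A13, and for S100A5, which is not among the 9. For S100A6 and S100A13 it held on the brighter probe set only, since the dimmer one had shCPT-1 below scramble for S100A6 and all altered groups above scramble for S100A13. In S100A2, S100A3, S100A4 and S100A6 no neighbouring groups in that order overlapped, in S100A13 shCPT-1 and scramble did, and in S100A5 every step did. Of all 12887 tested genes 488 (3.79%) had this order and 43 (0.334%) had it without overlap. S100A16 had scramble and shCPT-1 exchanged, with overlap, and S100A11, S100A14 and S100P each had another order. Along the chromosome the genes with this order were the consecutive S100A6, S100A5, S100A4, S100A3 and S100A2 and, beyond S100A16 and S100A14, S100A13.

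**Figure D3:**
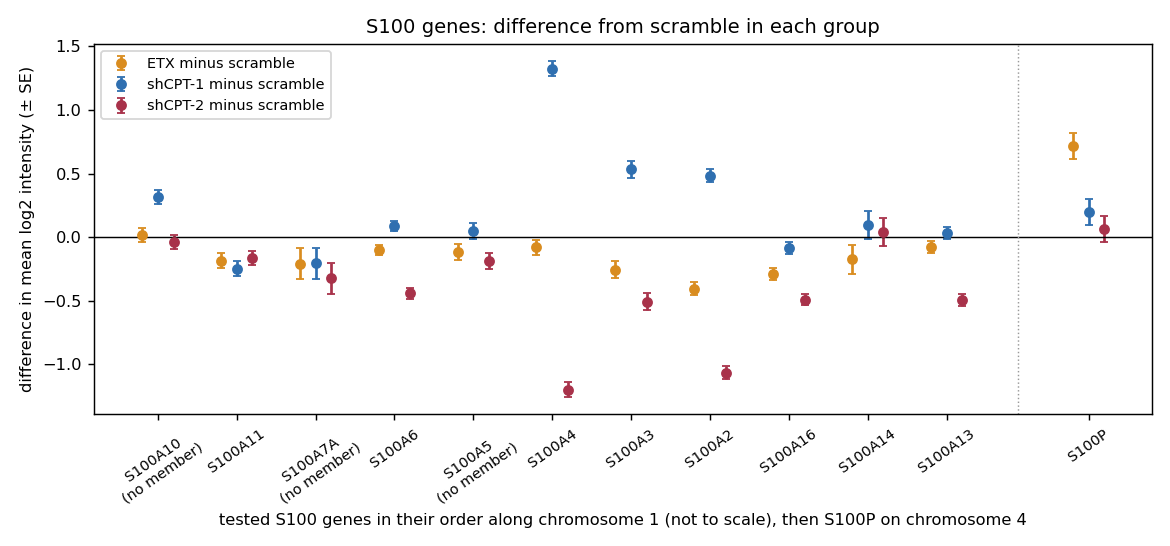
Difference in mean log2 intensity from scramble (vertical axis, points, with the standard error of the fit as bars) for ETX, shCPT-1 and shCPT-2, for every tested S100 gene in its order along chromosome 1 (not to scale) and for S100P on chromosome 4. The widest split is at S100A4, with shCPT-1 at 1.33 and shCPT-2 at -1.20, and the split is still seen at its neighbours S100A3 and S100A2.

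Luminal epithelial genes also differed between the groups. The summed intensity of the 9 listed (ESR1, PGR, GATA3, FOXA1, KRT8, KRT18, KRT19, CDH1 and EPCAM) was 11959 to 12667 in scramble, 9773 to 10045 with ETX, 13697 to 14173 with shCPT-1 and 11011 to 11844 with shCPT-2. Of these, 7 had a tested value, while the defining PGR and CDH1 exceeded the array median on 0 arrays. The keratins KRT8, KRT18 and KRT19, with EPCAM, GATA3 and ESR1, exceeded it on 12. FOXA1 exceeded it on 5, none of them a knockdown array. It averaged 6.27 in scramble, 6.46 with ETX, 5.81 with shCPT-1 and 5.92 with shCPT-2. FOXA1 thus passed the filter on low values only through the groups where it was higher, and its calls rest on values near or below the median. The sum was highest in shCPT-1, as S100A4 was, but lowest with ETX rather than shCPT-2. It is carried by the bright keratins, and other luminal genes went the opposite way with shCPT-1. There KRT19 rose by 0.73 (limma adjusted p = 3.74e-07) and KRT8 by 0.28 (adjusted p = 0.00147), while FOXA1 fell by 0.46 (0.00549), GATA3 by 0.33 (9e-05) and EPCAM by 0.29 (0.00595). In all 2 of 7 rose and 3 fell, with a median of 0.01, where 23.1% of all tested genes rose and 18% fell. With ETX 0 rose and 3 fell (21.9% and 19.4% of all tested genes), and with shCPT-2 1 rose and 3 fell (25.6% and 20.5%). The part of these genes in the S100 differences was not tested. The summed intensity of 5 endothelial genes was 428 to 458 in scramble, 434 to 478 with ETX, 348 to 388 with shCPT-1 and 349 to 369 with shCPT-2, and its part was not tested either. Of the 3 tested endothelial genes KDR rose with ETX by 0.39 (limma adjusted p = 0.0121) and fell with shCPT-1 by 0.64 (0.000435) and with shCPT-2 by 0.45 (0.004). The rise was lost without scramble array 1 or ETX array 2 (up to 0.0561). KDR averaged 6.63 in scramble, 7.02 with ETX, 5.99 with shCPT-1 and 6.18 with shCPT-2. It thus passed the filter on low values mainly through scramble and ETX, and its falls end near or below the median. PECAM1 fell with shCPT-2 by 0.47 (limma adjusted p = 0.00283) and with shCPT-1 by 0.31 (0.0331), the latter not without scramble array 1 or 2 or shCPT-1 array 2 or 3 (up to 0.136). TEK passed in no comparison. The sum of 7 fibroblast genes was 625 to 675 in scramble, 558 to 589 with ETX, 608 to 642 with shCPT-1 and 579 to 585 with shCPT-2, and that of the leukocyte genes lay between 143 and 170 on every array. Several of these genes lay near the array median, with log2 levels of 5.93 to 7.19 for KDR, 6.45 to 6.79 for TEK and 6.01 to 6.66 for PDGFRB. PECAM1 (6.76 to 7.51) and COL1A1 (7.96 to 8.31) lay above it. All arrays were labelled as the MDA231 line, and whether cells of another kind were present was not tested. In RNA from whole cultures fewer cells expressing a gene and less of its RNA per cell cannot be told apart.

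Among the other S100 genes on the array, 3 of 11 were tested, and S100A1, S100A7, S100A8, S100A9, S100A12, S100B, S100G and S100Z exceeded the array median on 0 arrays. S100A10, which forms a complex with annexin A2 at the membrane, measured 13.37, 13.43 and 13.49 in scramble and 13.78, 13.73 and 13.73 with shCPT-1. It rose with shCPT-1 by 0.32 (SE 0.06, limma adjusted p = 0.000662) and did not pass the test with ETX (0.02, adjusted p = 0.799) or shCPT-2 (-0.04, adjusted p = 0.625). Its second probe set also lay above scramble with shCPT-1, at 0.23, but stood at -0.34 with ETX. With the mean of both probe sets S100A10 fell with ETX by 0.16 (limma adjusted p = 0.00839, within a range up to 0.939 over the 16 alternatives), so its call and sign with ETX depend on the probe set. S100A5, a neighbour of S100A4, fell by 0.19 with shCPT-2 (limma adjusted p = 0.0268). That call was lost without scramble array 2 or 3 or shCPT-2 array 1 or 3, with adjusted p up to 0.103 (limma). With ETX it stood at -0.12 (adjusted p = 0.155, but 0.0241 without scramble array 1). S100A7A, or koebnerisin, fell by 0.32 with shCPT-2 (limma adjusted p = 0.0456) with overlapping arrays, and its call was lost without scramble array 1 or 3 or shCPT-2 array 1 or 3, with adjusted p up to 0.18. With ETX it stood at -0.21 (adjusted p = 0.192, but 0.0412 without ETX array 3).

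Receptors for released S100 proteins changed in different directions. TLR4, the lipopolysaccharide receptor that also binds S100A8 and S100A9, measured 8.22, 8.27 and 8.04 in scramble, 9.25, 9.22 and 9.22 with ETX, 7.72, 7.74 and 7.72 with shCPT-1 and 7.54, 7.10 and 7.47 with shCPT-2. It rose with ETX by 1.05 (SE 0.10, 2.07-fold, limma adjusted p = 1.11e-05). It fell with shCPT-1 by 0.45 (adjusted p = 0.00237) and with shCPT-2 by 0.81 (1.75-fold, adjusted p = 2.34e-05). All 4 TLR4 probe sets lay on the same side of scramble in each comparison, from 0.51 to 1.36 with ETX, -0.16 to -0.47 with shCPT-1 and -0.47 to -0.81 with shCPT-2. All 4 are of kinds that can match several transcripts or genes.

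BSG, or basigin, a surface glycoprotein that binds S100A9, fell with ETX by 0.21 (limma adjusted p = 0.00919) and with shCPT-2 by 0.18 (adjusted p = 0.0195). The shCPT-2 call was lost without scramble array 1 or 2 or shCPT-2 array 1 or 3, with adjusted p up to 0.088. With shCPT-1 BSG stood at 0.11 (adjusted p = 0.148, but 0.0464 without scramble array 1). AGER, which encodes RAGE, lay near the array median, at 6.43 ± 0.35 (SD, n = 3) in scramble, and passed no test (limma adjusted p = 0.143, 0.411 and 0.248 for ETX, shCPT-1 and shCPT-2). Without scramble array 2 or ETX array 3 AGER passed with ETX, at -0.46 (adjusted p = 0.0376 and 0.0334).

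Of the S100A13 export genes, FGF1 and SYT1 rose in each comparison. FGF1, the growth factor exported with S100A13, measured 7.76, 7.73 and 7.70 in scramble and 8.99, 9.02 and 9.04 with shCPT-2, a rise of 1.28 (SE 0.06, 2.44-fold, limma adjusted p = 6.08e-09). It rose by 0.32 with shCPT-1 (adjusted p = 0.00077) and by 0.22 with ETX (adjusted p = 0.00972). The ETX call was lost with the mean of its 3 probe sets (adjusted p = 0.0733, within a range from 9.9e-05 over the 16 alternatives). With shCPT-2 the 3 probe sets lay 0.64 to 1.73 above scramble. SYT1, synaptotagmin, part of the same release complex, measured 6.27, 6.28 and 6.27 in scramble, at about the array median. It rose with ETX by 0.76 (adjusted p = 1.31e-05), with shCPT-1 by 0.58 (adjusted p = 4.05e-05) and with shCPT-2 by 1.11 (2.16-fold, adjusted p = 1.25e-07, all limma). IL1A, interleukin-1 alpha, fell by 0.40 with shCPT-1 (limma adjusted p = 0.0179) and by 0.33 with shCPT-2 (adjusted p = 0.04). Those calls were lost without scramble array 1 or 2, without shCPT-1 array 1 or 2, and without any 1 of the shCPT-2 arrays, with adjusted p up to 0.0804 and 0.133. FGF1 and SYT1 were named for a called change of at least 0.5 in these same data, and IL1A after its values were seen.

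**Figure D4:**
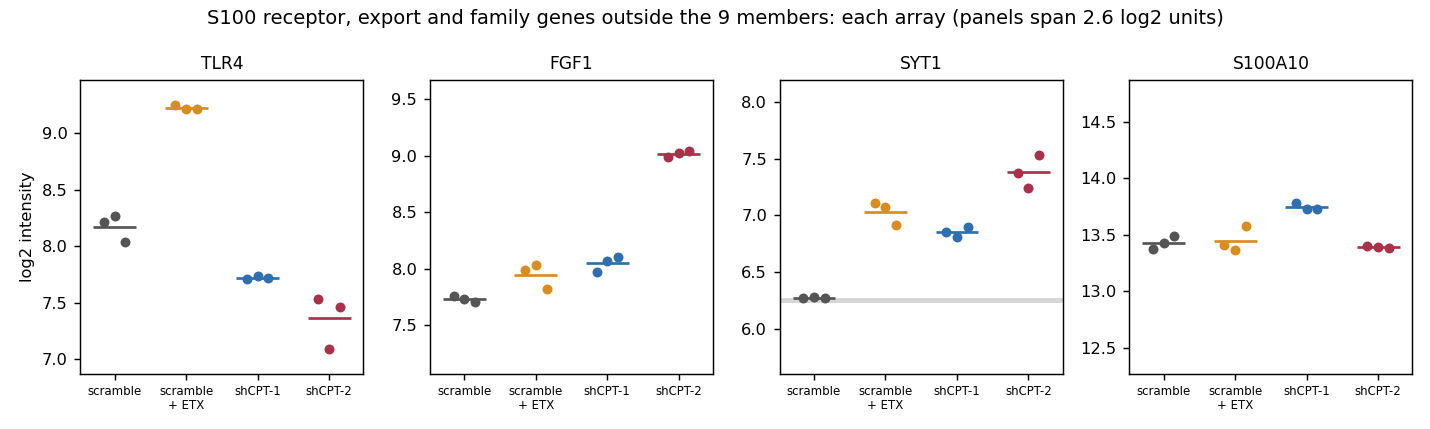
Log2 intensity (vertical axes, panels of equal span) on each array (points) and group means (bars) for TLR4, FGF1, SYT1 and S100A10, with array medians as a grey band in the SYT1 panel. TLR4 is highest with ETX at 9.23 and lowest with shCPT-2 at 7.37, and FGF1 and SYT1 are highest with shCPT-2 at 9.02 and 7.39.

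Taking receptors, binding partners and export genes together, 24 were tested. With ETX 7 rose and 6 fell by limma at an adjusted p under 0.05, where 21.9% and 19.4% of all tested genes did. With shCPT-1 6 rose and 5, TLR4, IL1A, AHNAK, ANXA6 and EZR, fell (background 23.1% and 18%), and with shCPT-2 6 rose and 8 fell (25.6% and 20.5%). Their median difference was -0.0043 with ETX, 0.03 with shCPT-1 and -0.0033 with shCPT-2, beside -0.01, 0.01 and 0.0046 for all genes. Without ETX array 1, 3 fell with ETX. The EZR call with shCPT-1 was lost without any 1 of scramble arrays 1 to 3 or shCPT-1 arrays 2 and 3 (limma adjusted p up to 0.127). Without scramble array 1 or 2 or shCPT-1 array 2, 3 fell with shCPT-1, and without scramble array 2 or shCPT-2 array 3, 5 fell with shCPT-2.

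None of the 18 tested binding partners both passed the test and differed from scramble by 0.5 or more on the log2 scale, so those named here were chosen after their values were seen. MYH9, the myosin heavy chain bound by S100A4, fell by 0.16 with ETX (limma adjusted p = 0.0173), a call lost without scramble array 2 or ETX array 1 or 2 (adjusted p up to 0.0747), and stood at -0.06 and -0.09 in the knockdowns. CACYBP, the S100A6 partner, rose by 0.14 with shCPT-2 (adjusted p = 0.00798). ANXA1, the annexin bound by S100A11, rose with ETX by 0.29 (adjusted p = 0.000131) and with shCPT-1 by 0.20 (adjusted p = 0.00107). ANXA2, the S100A10 partner, passed only with shCPT-2, at 0.12 (adjusted p = 0.0315), and that call was lost without scramble array 1 or 2 or shCPT-2 array 1 or 3 (adjusted p up to 0.108). ANXA6 fell with shCPT-2 by 0.40 (limma adjusted p = 5.68e-05) and with shCPT-1 by 0.19 (adjusted p = 0.0116). With ETX it fell by 0.19 (adjusted p = 0.011), a call lost without ETX array 1 or 2 (adjusted p up to 0.0513). EZR, or ezrin, bound by S100P, fell with shCPT-2 by 0.26 (adjusted p = 0.000268). With ETX EZR fell by 0.14 (adjusted p = 0.0231), a call lost without scramble array 1 or 2 or ETX array 1 (adjusted p up to 0.0924). PGM1 had the widest called change of the 18, a rise of 0.497 with ETX (limma adjusted p = 0.00299). STUB1 fell with ETX by 0.39 (adjusted p = 0.000127) and with shCPT-2 by 0.24 (adjusted p = 0.00198). S100PBP, a nuclear S100P-binding protein, rose with shCPT-1 by 0.33 (adjusted p = 6.42e-05).

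Genes around the S100 cluster were read for a shift of the whole region. Of 130 RefSeq genes (GRCh38.p14) starting within 500 kb of the span from S100A11 to S100A1, 26 were tested. Of these 2 rose and 5 fell with ETX, 3 rose and 1 fell with shCPT-1, and 2 rose and 5 fell with shCPT-2, by limma at an adjusted p under 0.05. Over all tested genes 21.9% rose and 19.4% fell with ETX, 23.1% and 18% with shCPT-1 and 25.6% and 20.5% with shCPT-2, so the shares among the neighbours were near these or below them. The widest called change was that of TUFT1, tuftelin, an enamel-associated protein, which rose by 0.53 with shCPT-2 (limma adjusted p = 5.29e-06) and by 0.27 with ETX (adjusted p = 0.00166). TUFT1 also passed with shCPT-1, at 0.16 (adjusted p = 0.0278), but not without scramble array 1 or 2 or shCPT-1 array 2 or 3 (adjusted p up to 0.119). SNX27, SNAPIN and GATAD2B, 3 of the 26, had the group order of S100A4, and were picked out for that order. Of the others called, RAB13, a small GTPase, fell by 0.48 with shCPT-2 (limma adjusted p = 6.84e-05) and by 0.25 with ETX (adjusted p = 0.00993). INTS3 fell with ETX by 0.27 and with shCPT-2 by 0.26, and SLC39A1 by 0.20 and 0.18. DENND4B and CRTC2 fell with ETX by 0.25 and 0.19, SNX27 and CREB3L4 with shCPT-2 by 0.29 and 0.27, and MRPL9 with shCPT-1 by 0.17. CCDST rose with ETX by 0.30, JTB and SNAPIN with shCPT-1 by 0.20 and 0.22, and CHTOP with shCPT-2 by 0.11. These too are named after their values were seen. Among the arrays of the groups compared, leaving out 1 ended the DENND4B call for scramble 1 or 2 (adjusted p up to 0.065) and the CRTC2 call for scramble 1 or 2 or any ETX array (up to 0.122). It ended the SNAPIN call for scramble 1 or 2 or shCPT-1 1 or 2 (up to 0.118) and the CHTOP call for scramble 1 or 2 or shCPT-2 1 or 3 (up to 0.155). The counts then moved to 3 lower with ETX without scramble 1 or 2, 4 higher with ETX without ETX 3, and 1 higher with shCPT-1 without scramble 1 or 2 or shCPT-1 2. They moved to 2 lower with shCPT-1 without scramble 3, ETX 3 or shCPT-1 3, and to 1 higher with shCPT-2 when any 1 array but scramble 3 or shCPT-2 2 was left out.

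S100A4 has been described as a target of beta-catenin and TCF factors, and 9 of 10 genes of that pathway were tested. With ETX 1 rose and 2 fell, with shCPT-1 1 rose and 3 fell, and with shCPT-2 3 rose and 0 fell by limma, beside 21.9% and 19.4%, 23.1% and 18%, and 25.6% and 20.5% of all genes. At an unadjusted p under 0.05, 1 gene, SP5, was lower with shCPT-2. RNF43, a ubiquitin ligase that clears Frizzled receptors and is induced by the pathway, rose with shCPT-1 by 0.57 (limma adjusted p = 0.000611) and with shCPT-2 by 0.40 (adjusted p = 0.00583) and stood at -0.15 with ETX (adjusted p = 0.249, but 0.00215 without ETX array 3). It lay below the array median in scramble, at 6.21, and averaged 6.06 with ETX, 6.79 with shCPT-1 and 6.61 with shCPT-2. RNF43 thus passed the filter on low values mainly through the knockdown groups, where it was higher. LEF1, a DNA-binding partner of beta-catenin, fell with shCPT-1 by 0.27 (adjusted p = 0.00151). SP5 fell with ETX by 0.38 (adjusted p = 0.000992) and with shCPT-1 by 0.25 (adjusted p = 0.00979). CTNNB1, beta-catenin itself, rose with ETX by 0.30 (adjusted p = 0.00971) and with shCPT-2 by 0.27 (adjusted p = 0.014), the latter not without scramble array 1 or 2 or shCPT-2 array 1 or 3 (up to 0.0651). ZNRF3 rose with shCPT-2 by 0.33 (adjusted p = 0.00181) and fell with shCPT-1 by 0.21 (0.0252), the fall not without scramble array 1 or shCPT-1 array 1 (up to 0.107). TCF7L1 fell with ETX by 0.25 (0.0242), but not without scramble array 1 or 2 or ETX array 3 (up to 0.101). RNF43 was named for a called change of at least 0.5 in these same data, and the others after their values were seen.

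The genes whose log2 values followed S100A4 most closely over the 12 arrays were RASD1, a Ras-like protein (Pearson r = 0.993), MBP, myelin basic protein (0.991), PTGES, prostaglandin E synthase (0.988), CD96, an immunoglobulin family receptor (0.982), and TIMP3, an inhibitor of metalloproteinases (0.979). The arrays fall into 4 groups, so r mainly describes differences between groups, and these genes were picked for the pattern. RASD1 averaged 9.71 in scramble, 9.54 with ETX, 10.71 with shCPT-1 and 8.51 with shCPT-2. PTGES averaged 9.03, 8.69, 10.35 and 7.43 in that order and spanned more than S100A4. TIMP3 averaged 9.98, 9.74, 10.62 and 9.21.

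**Figure D5:**
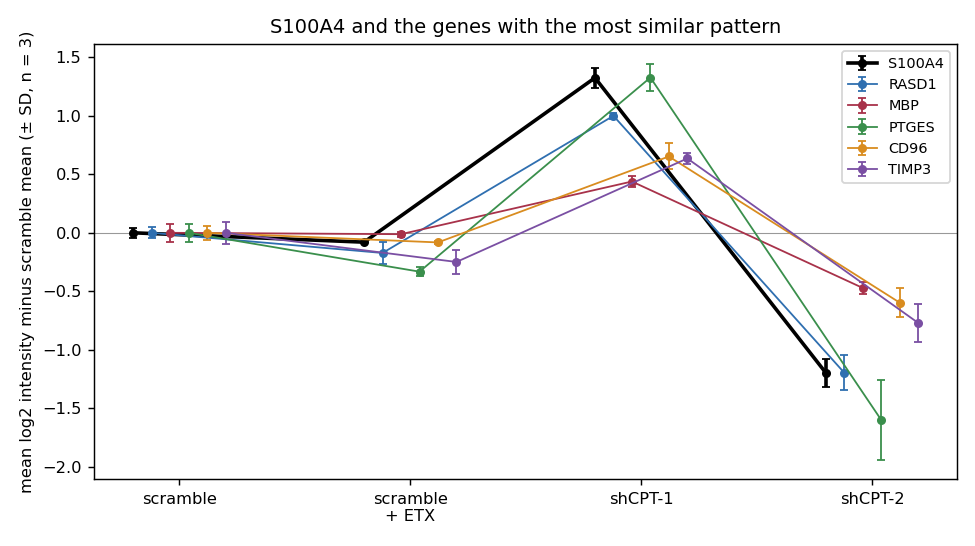
Mean log2 intensity minus the scramble mean (vertical axis, with SD over 3 arrays as bars) in the 4 groups for S100A4 (black) and the genes with the highest correlation with it. All are highest with shCPT-1 and lowest with shCPT-2, with S100A4 at 1.33 and -1.20 and PTGES at 1.33 with shCPT-1.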

How the data were processed

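Gene expression was read on 12 Affymetrix arrays with 1 colour. The files hold deposited linear intensities for each probe set and array, made by the authors with RMA (per the submitters' processing notes). RMA corrects background, equalises arrays and summarises probes, which compresses small differences. Its version, its settings and a build were not given in the sources used here. All columns mapped to a labelled array.

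Log2 was taken of the deposited intensities. Of 54675 probe sets, 41091 had 1 gene symbol, 1801 several and 11721 none, and 62 were controls. Probe sets above the array median on 3 or more arrays were kept (28630), and the kept probe set with the highest mean stood for its gene. All 11 probe sets of the 9 S100 genes passed. Group differences, standard errors and p-values came from limma 3.58.1 (lmFit, eBayes, all 12 arrays, no covariates) in R 4.3.3, two-sided, with Benjamini-Hochberg adjustment over 12887 genes and calls under 0.05. The listed genes were described without p-values, by whether groups overlapped. With 3 arrays a group the smallest exact p is 0.1. On data simulated for ETX against scramble with 12887 genes, 88 of 100 genes shifted by 0.5 and 99 of 100 shifted by 1 were called, with 10 calls among unchanged genes. The simulated noise was independent between genes and arrays, and only the shifted genes differed. In the real data 5319 genes were called for ETX, so these rates need not hold there. Figures used Python 3.11.15 and matplotlib 3.10.9.

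The S100 genes and all lists were chosen with earlier results of these data known. Named were all listed genes, all tested other S100 genes and S100 receptors, and, from binding partners, export cargo, TCF genes and chromosomal neighbours, up to 6 called genes with a change of at least 0.5 per list. The 5 genes most correlated with S100A4 were added. S100A4 was also the listed gene with the widest range. Promoter windows came from RefSeq, which held all 9 genes. Alternatives were other filters, probe set rules, normalizations, variance models and array weights, a replicate block, and leaving out each array.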

Additional observations from a re-analysis of the deposited data

How the results depend on the processing

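Of 462 recomputed counts, 410 stayed within 1.5 times the reported count and 52 moved further. Counts of S100 genes without overlap use the intensities alone. The variance model, array weights, replicate block and fits of only the groups compared therefore could not move them. Counts recomputed without an array from outside the comparison are also among the 462. The moved counts are small, and the cause was not tested beyond the fewer genes or arrays some settings use. With the mean of probe sets S100A13 stood at 0.16 with ETX and S100A6 at -0.053 with shCPT-1, opposite to their reported signs, S100A10 with ETX was at -0.16 and passed the test, 2 S100 genes lay above scramble with ETX, and 3 partner genes rose with shCPT-1. Without probe sets ending in _s_at, _x_at or _a_at, which removes S100A4 and TLR4, partner genes numbered 3 higher and 0 lower with ETX, 3 higher and 2 lower with shCPT-1 and 3 lower with shCPT-2, and chromosomal neighbours 1 higher with ETX, 1 higher with shCPT-1 and 0 higher with shCPT-2. With array weights partner genes numbered 10 higher and 8 lower with shCPT-1, and neighbours 7 higher with ETX, 7 higher and 6 lower with shCPT-1 and 4 higher and 10 lower with shCPT-2. Neighbours lower with shCPT-1 numbered 2 with no filter and with quantile normalization again, and neighbours higher with shCPT-1 numbered 1 with only the groups compared. Neighbours higher with shCPT-2 numbered 1 with a filter at the 25th percentile, with quantile normalization again, with only the groups compared and with the replicate block.

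Leaving out each array in turn gave 7 to 8 S100 genes lower with ETX and 4 to 5 higher with shCPT-1. It also gave 1 to 2 S100 genes lower with shCPT-1 and 0 to 1 higher with shCPT-2. Partner genes lower ranged from 3 to 7 with ETX, 3 to 6 with shCPT-1 and 5 to 8 with shCPT-2. Neighbours ranged from 2 to 4 higher and 3 to 6 lower with ETX, 1 to 4 higher and 1 to 2 lower with shCPT-1, and 1 to 3 higher with shCPT-2. Of the tested named genes, S100A5 with shCPT-2 lost its call under 8 of 16 alternatives, S100A7A with shCPT-2 under 9 of 16, TUFT1 with shCPT-1 under 6 of 15 and BSG with shCPT-2 under 5 of 15. S100A4 kept its sign under all 15 alternatives that hold it in each comparison, at 1.28 to 1.35 with shCPT-1 and -1.24 to -1.12 with shCPT-2. It has 1 probe set, so the other filters and the mean of probe sets could not move its difference. Nor could the variance model, the replicate block or fits of only the groups compared. The ranges thus reflect only the other normalizations, the array weights and the arrays left out.

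Replicate numbers are shared across groups. Of 18 pairs of arrays with 1 number, 8 had deviations that correlated above 0.1 (range -0.46 to 0.33), and 3 of 12 arrays matched their own number best. Between scramble and ETX the values were 0.09, 0.28 and 0.33, whereas every other pair of groups held a negative value. The numbers thus showed no clear pairing, but with 3 arrays a group this check cannot exclude a pairing. With the replicate block 5075, 5063 and 5748 genes were called for ETX, shCPT-1 and shCPT-2, against 5319, 5302 and 5937 without it. It also ended the call of S100A7A with shCPT-2. The number of arrays limits the precision, and S100A14, S100P and AGER lay near the array median.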
